A study of Mus musculus with 2 samples.

Results

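The 9 genes described here encode RNA-binding proteins of paraspeckles and related nuclear bodies: Sfpq, Nono, Pspc1, Ewsr1, Taf15, Tardbp, Matr3, Rbm14 and Elavl1. They were chosen by gene name in the deposited table, as proteins linked to the biology of Malat1 and Neat1, and each name matched 1 of 16385 genes. RNA was sequenced from C57BL/6 mouse naive CD4+ T cells that carried a Malat1 knockout and had been cultured for 72 h toward Th17 cells, which are IL-17-secreting helper T cells. The culture held the cytokines IL-6 at 20 ng/mL and TGF-β at 0.1 ng/mL together with antibodies to CD28 at 1 µg/mL and to CD3ε at 0.25 µg/mL, and there were 2 biological replicates. The wild-type Th17 libraries of the comparison belong to another series and were not analysed here one by one, so genotype and series cannot be told apart. The labels give neither the kind of knockout allele nor the age and sex of the mice. The Malat1 transcript is not analysed here and the genotype therefore rests on the library titles, and a further label of replicate 2 reads Malat2 knockout where its title reads Malat1.

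Paraspeckles are nuclear bodies built on the long non-coding RNA Neat1, which lies next to Malat1 on the same chromosome, while Malat1 RNA gathers in the neighbouring nuclear speckles. Sfpq, Nono and Pspc1 form the DBHS family (Drosophila behaviour, human splicing), whose proteins pair with each other and coat Neat1. Ewsr1 and Taf15 belong to the FET family of RNA-binding proteins with low-complexity domains. Tardbp encodes TDP-43 and Matr3 encodes matrin 3, both nuclear regulators of splicing. Rbm14 encodes a coactivator that helps to assemble paraspeckles, and Elavl1 encodes HuR, which binds AU-rich elements and stabilises mRNAs, those of T cell cytokines among them.

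Replicate 1 was sequenced to 21554852 counts and replicate 2 to 26916169. The 9 genes took 36510 of these counts in replicate 1 and 49314 in replicate 2, which is 0.169% and 0.183%, and none was near the limit of detection. The T cell label held: 8 pan T cell markers summed to normalized counts of 78602 and 73472 in the knockout libraries, against 71052 in the implied wild-type mean, which is what the authors' mean over 4 libraries leaves once both knockout values are taken out. The 7 Th17 markers summed to 111770 and 109598 in the knockout libraries, against 91160 in the implied wild-type mean. Il17f weighed most in that difference, at 63523 and 60211 in the knockout libraries, against 46851 in the implied wild-type mean. Its log2 fold change was 0.40 (adjusted p 0.00124, the authors' DESeq2), and it was the 1 gene of the table that passed upward. All 7 fold changes lay above 0, with a median of 0.28, but Il17a stood at 0.15 (SE 0.14) and Il22 at 0.0028 (SE 0.14). Summed markers of kidney tubule and of matrix with smooth muscle were lower in the knockout libraries than in the implied wild-type mean. Gene by gene, however, 0 of the 9 kidney tubule markers passed by the authors' DESeq2, with standard errors of 1.37 to 4.69. Of the 8 matrix and smooth muscle markers, 1 passed, Actg2, with a log2 fold change of -6.97 (SE 1.47, adjusted p 0.00223, the authors' DESeq2). The sums carry no error of their own. The 9 kidney tubule markers summed to 65.8 and 65.3 in the knockout libraries, with Lrp2 and Umod at 0 counts, against 32080 in the implied wild-type mean. The 8 matrix and smooth muscle markers summed to 64.8 and 54.6 in the knockout libraries, with Col1a2 at 0 counts, against 15294 in the implied wild-type mean. The part of these differences in the results on the 9 genes was not tested.

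All 9 genes were well expressed in the knockout cells, and per kilobase of exon their levels spanned 9.06-fold. The unit of this paragraph is the authors' normalized count divided by the exonic length of the gene in kilobases (GENCODE M21). Nono was the most abundant at 1792 ± 48.6 (SD, n = 2), followed by Ewsr1 at 1223 ± 14.9, Sfpq at 1067 ± 104, Tardbp at 875 ± 69.7 and Taf15 at 795 ± 34.3 (SD, n = 2 for each). A gap of 2.43-fold separated these 5 genes from the other 4. Rbm14 stood at 328 ± 17.5, Matr3 at 253 ± 22.1, Elavl1 at 205 ± 12.4 and Pspc1 at 198 ± 10.4 (SD, n = 2 for each). Neighbours in this order did not overlap between the replicates, except Elavl1 and Pspc1. The median was 183 over the 10540 genes whose knockout mean reached 50, so that Pspc1 stood at percentile 52.2 and Nono at percentile 95.2. The exonic length joins the exons of every annotated transcript, so a gene with long, rarely used exons can read low on this scale.

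**Figure D1:**
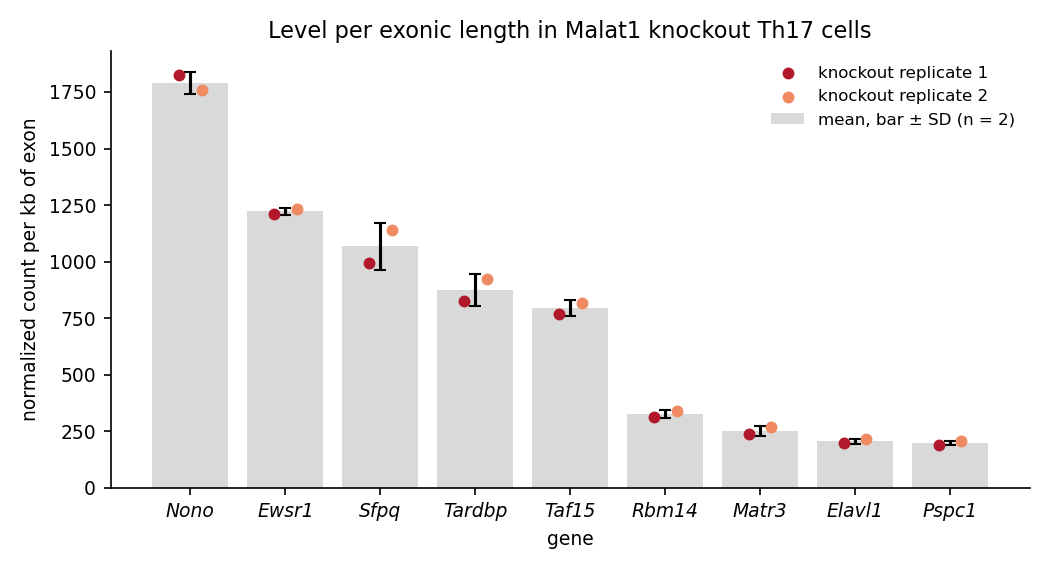
Level of each gene in Malat1 knockout Th17 cells, as normalized count per kilobase of exon (y axis) for each gene (x axis), with points for both replicates, grey columns for the mean and bars for the SD (n = 2). Nono, at 1792, stands highest, and 4 genes lie between 198 and 328.

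Within the DBHS family, the order of level was Nono, Sfpq and Pspc1. Their promoters are shown because these 3 genes encode the protein core of the paraspeckle and include both the most and the least abundant of the 9. The sequences run from 250 bases before to 50 bases after the RefSeq transcript start (GRCm38.p6). They lie at chr4:127021051-127021350 on the plus strand for Sfpq, chrX:101429401-101429700 on the plus strand for Nono and chr14:56778269-56778568 on the minus strand for Pspc1. The whole Nono window lies inside the annotated span of that gene, which starts upstream of it at 101429318 in GENCODE M21. Capitals mark CCAAT and GGGCGG on either strand.
Nono: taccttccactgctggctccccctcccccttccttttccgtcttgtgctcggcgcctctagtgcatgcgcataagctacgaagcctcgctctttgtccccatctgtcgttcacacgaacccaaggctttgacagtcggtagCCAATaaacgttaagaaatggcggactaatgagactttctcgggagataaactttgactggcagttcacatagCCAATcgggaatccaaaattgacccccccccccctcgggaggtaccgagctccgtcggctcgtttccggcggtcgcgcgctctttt
Sfpq: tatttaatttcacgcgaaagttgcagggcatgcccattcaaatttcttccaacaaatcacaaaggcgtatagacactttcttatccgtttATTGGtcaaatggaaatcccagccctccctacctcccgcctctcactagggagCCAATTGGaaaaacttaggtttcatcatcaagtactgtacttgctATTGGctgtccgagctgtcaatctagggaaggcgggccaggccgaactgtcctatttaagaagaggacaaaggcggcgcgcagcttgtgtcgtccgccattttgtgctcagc
Pspc1: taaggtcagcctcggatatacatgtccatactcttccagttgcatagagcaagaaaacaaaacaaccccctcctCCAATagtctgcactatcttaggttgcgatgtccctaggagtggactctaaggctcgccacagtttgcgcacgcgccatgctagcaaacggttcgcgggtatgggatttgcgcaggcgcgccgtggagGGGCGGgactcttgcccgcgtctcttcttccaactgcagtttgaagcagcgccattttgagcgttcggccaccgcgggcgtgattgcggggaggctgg
The Nono window held 2 matches to CCAAT, the Sfpq window 4, of which 2 overlap, and the Pspc1 window 1, together with 1 match to GGGCGG. RefSeq promoters were found for 8 of the 9 genes, all but Matr3. CCAAT occurred in 6 of the 8, against 37.4% of all 32851 promoters of that length, and GGGCGG in 3 of 8, against 35.7%. TATAAA occurred in 0 of 8, against 13.6% of all promoters, and CCGGAAG in 0 of 8, against 8.86%. A match is a string of letters and says nothing about which factor binds.

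The question of the comparison was whether the 9 transcripts differ in Th17 cells without Malat1. None of the 9 passed: by the authors' DESeq2 Wald test, the adjusted p was 1.00 for each in the authors' deposited table, where 0.159% of 14481 genes passed an adjusted p of 0.05. All 9 fold changes nevertheless lay below 0, with a median of -0.11 (log2 of knockout over wild type) in the authors' deposited table. Of the 7070 genes whose mean reached 500, 47.2% lay below 0, and their median was 0.0083. At an unadjusted p under 0.05 (the authors' DESeq2), 1 of the 9 genes was lower (Matr3) and 0 were higher. At that threshold, 1.72% of all 16385 genes were lower and 0.391% higher. Of the 7070 genes whose mean reached 500, 92 were lower and 64 higher. In bulk RNA, fewer cells of a type and less RNA per cell cannot be told apart.

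Sfpq encodes a splicing factor that is essential for paraspeckles, and it lies on chromosome 4 from 127021324 to 127037013 (mm10, the mouse assembly GRCm38). Its normalized counts were 4714 and 5409 in the knockout libraries, against an implied wild-type mean of 5858. Both knockout libraries lay below that mean, replicate 1 by more. The authors' deposited table gives a log2 fold change of -0.21 (SE 0.11, 95% interval -0.43 to 0.014, unadjusted p 0.0666 by the authors' DESeq2). Nono encodes its partner, on chromosome X from 101429318 to 101448591. Its normalized counts were 7989 and 7688 in the knockout libraries, against an implied wild-type mean of 8229. Nono was the 1 gene of the 9 that was lower in replicate 2 than in replicate 1. Its log2 fold change in the authors' deposited table was -0.07 (SE 0.096, 95% interval -0.26 to 0.12), so a fall of more than 16.4% lies outside the interval. Pspc1 encodes paraspeckle component 1, on chromosome 14 from 56720710 to 56778316. Its normalized counts were 1091 and 1176 in the knockout libraries, against an implied wild-type mean of 1173. Replicate 2 thus lay at the wild-type level, and the log2 fold change in the authors' deposited table was -0.05 (SE 0.22, 95% interval -0.48 to 0.38). The interval of Pspc1 is wide and holds a fall of 28.5% as well as a rise of 30.5%.

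**Figure D2:**
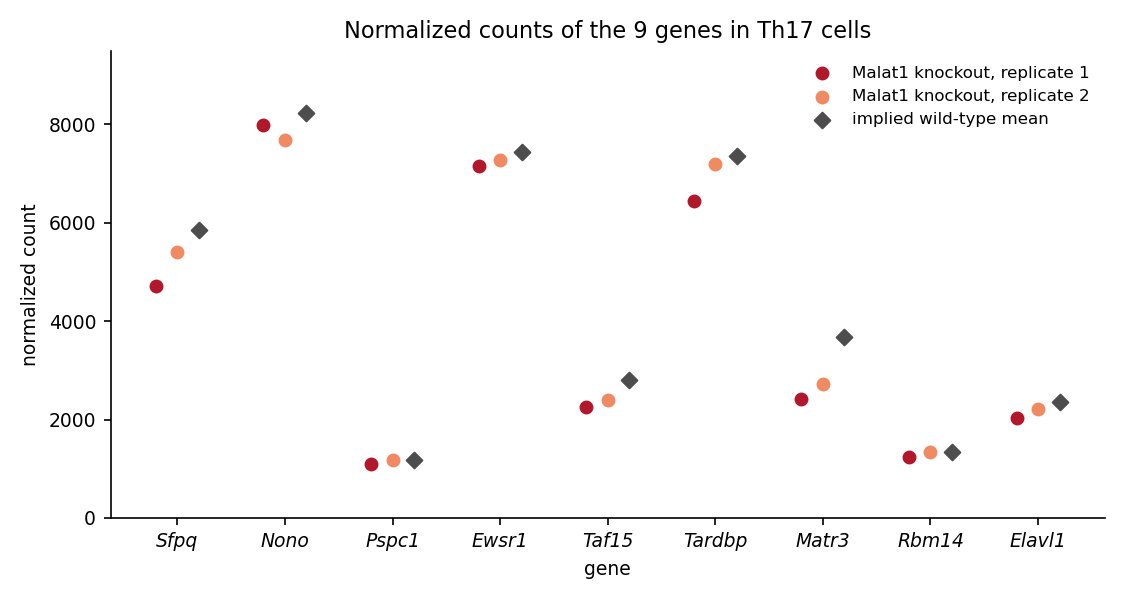
Normalized counts (y axis) of each gene (x axis) in both Malat1 knockout replicates (circles) and the implied wild-type mean (diamonds, which carry no error). Replicate 1 lies under the diamond for all 9 genes and replicate 2 for all but Pspc1, and the widest gap is that of Matr3.

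Ewsr1 and Taf15 both had fold changes below 0, with intervals that overlapped. Ewsr1 lies on chromosome 11 from 5069689 to 5099266, and its normalized counts were 7161 and 7285 in the knockout libraries, against an implied wild-type mean of 7447. The knockout libraries differed little from each other and from that mean. The authors' deposited table gives Ewsr1 a log2 fold change of -0.04 (SE 0.10, 95% interval -0.24 to 0.15). Taf15, which encodes a TATA-binding protein associated factor, lies on the same chromosome from 83473086 to 83506743, and its normalized counts were 2249 and 2391 in the knockout libraries, against an implied wild-type mean of 2811. Both knockout libraries lay below it by more than they differed from each other. The value for Taf15 in the authors' deposited table was -0.27 (SE 0.16, 95% interval -0.59 to 0.039, unadjusted p 0.0860 by the authors' DESeq2).

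Matr3 had the lowest fold change of the 9 genes. Its normalized counts were 2410 and 2728 in the knockout libraries, against an implied wild-type mean of 3674, and both libraries lay well below that mean, by 0.61 and 0.43 on the log2 scale. The gene lies on chromosome 18 from 35562138 to 35593835. The authors' deposited table gives a log2 fold change of -0.49 (SE 0.19, 95% interval -0.86 to -0.12), or 0.713-fold, with an unadjusted p of 0.00921 and an adjusted p of 1.00 (the authors' DESeq2). Matr3 was the 1 gene of the 9 whose interval did not hold 0, yet 119 genes of the table had a smaller p. Its annotated exons share 1754 bases, 17.3% of its exonic length, with a gene on the same strand that the table calls Snhg4, which had 21 and 23 counts in the knockout libraries. The treatment of reads in shared exons by the authors' counting is unknown here.

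Tardbp, whose protein TDP-43 limits its own mRNA, lies on chromosome 4 from 148612382 to 148627019. Its normalized counts were 6435 and 7204 in the knockout libraries, against an implied wild-type mean of 7360. Replicate 2 lay close to that mean and replicate 1 below it, and the authors' deposited table gives a log2 fold change of -0.11 (SE 0.12, 95% interval -0.34 to 0.12). Tardbp shares 1817 exonic bases with Masp2 on the opposite strand, which had 11 and 14 counts in the knockout libraries. Of its 30 annotated transcripts, 10 are annotated as targets of nonsense-mediated decay. Over the 9 genes, 3 have such a transcript (Pspc1, Tardbp and Matr3) and 6 have a retained-intron transcript, close to the 32.5% and 67.5% of genes with a mean of 500 or more.

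Rbm14 lies on chromosome 19 from 4800569 to 4811634, and its normalized counts were 1232 and 1329 in the knockout libraries, against an implied wild-type mean of 1333. Replicate 2 lay just below that mean and replicate 1 further below. The log2 fold change of Rbm14 in the authors' deposited table was -0.06 (SE 0.21, 95% interval -0.47 to 0.35). Its exons share 727 bases, 18.6% of its exonic length, with Gm21992 on the same strand, which had 20 and 35 counts in the knockout libraries. Elavl1 lies on chromosome 8 from 4285382 to 4325413, and its normalized counts were 2038 and 2220 in the knockout libraries, against an implied wild-type mean of 2349. Both lay below that mean, and the authors' deposited table gives a log2 fold change of -0.14 (SE 0.16, 95% interval -0.46 to 0.18).

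**Figure D3:**
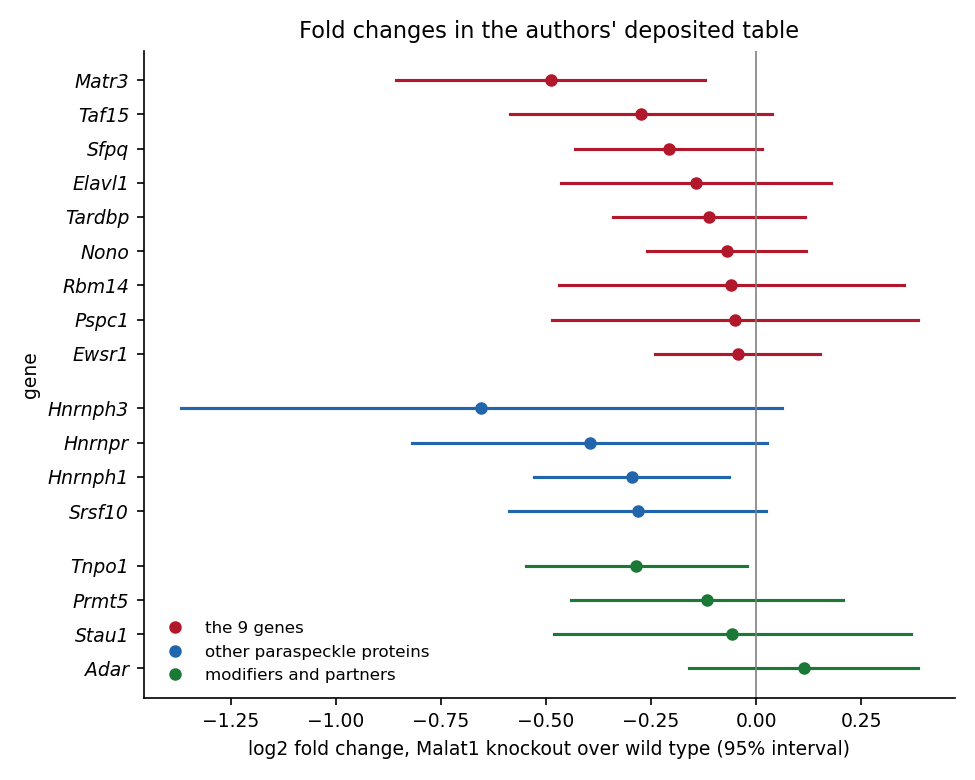
Log2 fold changes, Malat1 knockout over wild type (x axis), with 95% intervals from the deposited standard errors, for the 9 genes (red), other paraspeckle proteins (blue) and modifiers and binding partners (green). Every red point lies left of 0, from -0.49 for Matr3 to -0.04 for Ewsr1, and 8 of the 9 intervals hold 0.

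Of the whole set, 8 of the 9 genes had both knockout libraries below the implied wild-type mean, against 33.9% of genes with a mean of 500 or more. The exception was Pspc1. Summed over the 9 genes, the normalized counts were 35319 and 37429 in the knockout libraries, which is 87.8% and 93.0% of the implied wild-type sum of 40233. Fold changes of -0.2 or less (log2) were found for 3 of the 9 genes, Matr3, Taf15 and Sfpq, against 8.84% of genes with a mean of 500 or more. The cut of -0.2 was not planned beforehand, and Sfpq lies just past it at -0.21. These shares describe the 9 genes and carry no test, since the genes were chosen with earlier results of these data known.

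**Figure D4:**
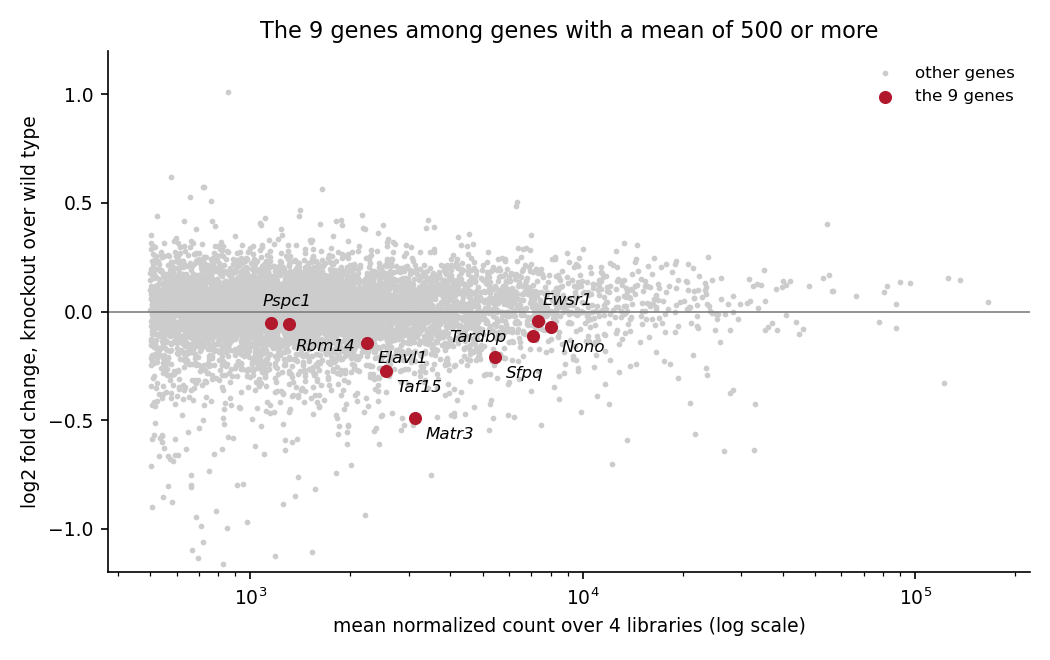
Log2 fold change, knockout over wild type (y axis), against the authors' mean normalized count over 4 libraries (x axis, log scale) for genes with a mean of 500 or more and at least 1 knockout count (grey) and the 9 genes (red). The 9 genes lie below the zero line, between -0.49 and -0.04, and 30 genes beyond the y axis are not drawn.

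The knockout libraries also differed from each other across the 9 genes. Replicate 2 was higher than replicate 1 in 8 of the 9 genes, against 49.4% of genes with a mean of 500 or more, and the median log2 ratio of replicate 2 to replicate 1 was 0.11, against -0.0021 over those genes. The ratio was 0.20 for Sfpq (95% exact binomial interval 0.15 to 0.25), 0.18 for Matr3 (0.10 to 0.25) and 0.16 for Tardbp (0.12 to 0.21), intervals that cover counting error only. For 7 of the 9 genes the interval did not hold 0, against 46.6% of genes with a mean of 500 or more. The ratio was -0.06 for Nono (-0.097 to -0.013) and 0.02 for Ewsr1 (-0.019 to 0.069). Against the implied wild-type mean, the median log2 ratio over the 9 genes was -0.19 in replicate 1 and -0.08 in replicate 2. That mean pools the wild-type libraries. A pairing of each knockout replicate with a wild-type library, if there was one, is therefore not taken into account.

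Fold changes in these libraries moved with the GC content of the transcript, taken from the longest annotated one. Of genes whose mean reached 500, leaving out those near-absent from the knockout libraries, the 891 genes under 42% GC had a median log2 fold change of -0.099, and the 1764 genes at 54% or more had 0.058. The ratio of replicate 2 to replicate 1 ran the other way, with medians of 0.088 and -0.056 in those classes. The 9 genes were spread over the range, from 38.5% for Matr3 to 56.2% for Rbm14, with a median of 48.7% against 49.3% of genes with a mean of 500 or more. With the GC trend subtracted from the authors' deposited table, 8 of the 9 fold changes lay below 0, against 49.3% of genes with a mean of 500 or more, and their median was -0.11. Matr3 then stood at -0.39, Taf15 at -0.29, Sfpq at -0.23 and Tardbp at -0.05, while Pspc1 stood at 0.019. By a Wald test on those values with the deposited standard errors, the unadjusted p was 0.0395 for Matr3 and 0.0428 for Sfpq, and the adjusted p was 1.00 for both. The subtraction moved Matr3, Tardbp, Pspc1 and Elavl1, whose GC content is below 46%, upward and the other 5 genes downward.

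**Figure D5:**
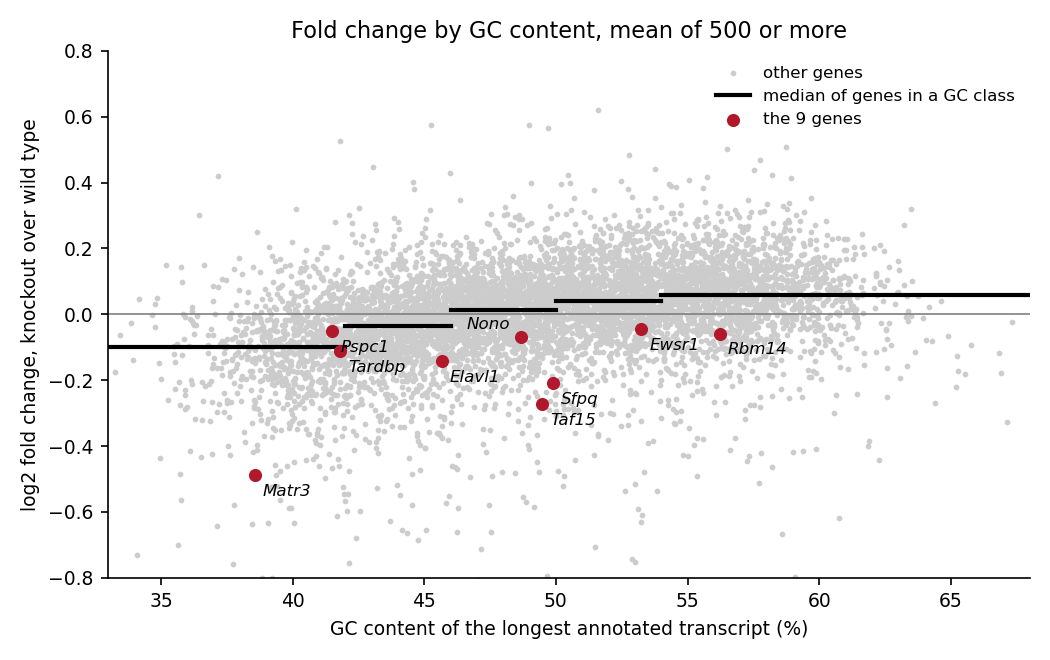
Log2 fold change, knockout over wild type (y axis), against GC content of the longest annotated transcript (x axis, %) for genes with a mean of 500 or more (grey), with the median of each GC class (black lines) and the 9 genes (red). The medians run from -0.099 under 42% to 0.058 at 54% or more, and 51 genes beyond the axes are not drawn.

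Other proteins of the paraspeckle were measured as well, from a list of 34 genes known from localisation studies in human cells. By the authors' DESeq2, 0 of the 34 passed an adjusted p of 0.05. At an unadjusted p under 0.05, where 1.72% of all 16385 genes were lower and 0.391% higher, the count was 1 lower and 0 higher. Fold changes lay below 0 for 24 of the 34, with a median of -0.070 in the authors' deposited table, against 55.9% and a median of -0.031 over all 16385 genes. Of the 26 with a mean of 500 or more, 19 lay below 0, with a median of -0.069. All genes with such a mean gave 47.2% and a median of 0.0083. The gene lower at an unadjusted p under 0.05 was Hnrnph1, an hnRNP that binds G-rich RNA. Its normalized counts were 7344 and 7879 in the knockout libraries, against an implied wild-type mean of 9403. Both knockout libraries lay below that mean, and the authors' deposited table gives Hnrnph1 a log2 fold change of -0.30 (SE 0.12, unadjusted p 0.0123, adjusted p 1.00, the authors' DESeq2). Its GC content is 37.1%, and with the GC trend subtracted it stood at -0.18. Hnrnpr (-0.40, SE 0.22), Srsf10 (-0.28, SE 0.16) and Hnrnph3 (-0.65, SE 0.36), all regulators of splicing, came next by p in the authors' deposited table. The genes of the list with the highest counts lay on either side of the list median of -0.070. Hnrnpa1 stood at -0.05 (SE 0.081) and Hnrnpk at -0.10 (SE 0.078) by the authors' deposited table, and these were named after their values were seen.

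Among 7 relatives and neighbours of the genes, 0 passed an adjusted p of 0.05 by the authors' DESeq2. At an unadjusted p under 0.05, where 1.72% of all 16385 genes were lower and 0.391% higher, 1 was lower and 0 higher. That gene was Elavl2, a neuronal relative of Elavl1, which had 0 counts in both knockout libraries, a level of at most 2.90 and 2.28 normalized counts, against an implied wild-type mean of 91.0. Its unadjusted p in the authors' deposited table was 0.00623 and its adjusted p 0.886 (the authors' DESeq2). The kidney and matrix markers, whose sums are given above, were likewise near 0 in the knockout libraries, and their part in the value of Elavl2 was not tested. Rbm4b, a close copy of Rbm4 that lies near Rbm14, stood at -0.59 (SE 0.68), and Rbm20, a relative of Matr3, at -0.59 (SE 1.79), both by the authors' deposited table. Elavl4, another neuronal relative of Elavl1, had a mean of 0.888, below the floor of 3 counts, and no fold is given.

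Of 6 modifiers and binding partners, 0 passed an adjusted p of 0.05 by the authors' DESeq2. At an unadjusted p under 0.05, where 1.72% of all 16385 genes were lower and 0.391% higher, 1 was lower and 0 higher. That was Tnpo1, which encodes the import receptor transportin 1 that carries FET proteins into the nucleus. Its normalized counts were 4243 and 4987 in the knockout libraries, against an implied wild-type mean of 5604, and the authors' deposited table gives a log2 fold change of -0.29 (SE 0.13, unadjusted p 0.0331, adjusted p 1.00, the authors' DESeq2). Both knockout libraries lay below that mean, replicate 1 by more, as for Sfpq. Adar, an RNA-editing enzyme, stood at 0.11 (SE 0.14), Prmt5, an arginine methyltransferase, at -0.12 (SE 0.17) and Stau1, a double-stranded RNA-binding protein, at -0.06 (SE 0.22) in the authors' deposited table.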

How the data were processed

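The raw counts of the 2 Malat1 knockout libraries were deposited by the authors as whole numbers. Normalized counts are a signal: the authors divided each library by its size factor (1.03 and 1.32), and their mean column averages that signal over 4 libraries. The log2 fold changes and standard errors, the Wald statistic (a score), and the p-values, raw and adjusted, are as the authors deposited them from DESeq2 1.18.1. The submitters' processing notes also name STAR 2.6.1a, featureCounts and mm10. The annotation, strand setting, handling of multi-mapped reads and model factors are not given in the sources used. The title of the deposited table holds the word multifactor, so the authors' model may have held factors besides genotype. The implied wild-type mean takes no such factor into account. Another 4 per-sample columns, of wild-type libraries that are no samples of this series, were left unused.

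No new test between genotypes was run. A gene passed where the authors' adjusted p was under 0.05, and 1904 genes have none. The implied wild-type mean is (4 times the authors' mean minus both knockout values) over 2, and carries no error. Intervals of 95% on fold changes are normal, from the deposited standard error, and intervals on replicate ratios are exact binomial. Replicates are called independent by the submitters, but their cultures and animals are not given. Near-absent genes, 235 in number, are those whose implied wild-type mean reached 100 while the knockout mean stayed under 2% of that. GC trends were fitted by lowess (span 0.3, statsmodels 0.14.6) over other genes with a mean of 50 or more, from GENCODE M21 transcripts, which matched 99.9% of gene IDs. TMM factors came from edgeR 4.0.16 in R 4.3.3. The scripts were tested on simulated data. At a count of 0, a floor of 3 counts per library is given.

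The members and lists were chosen with earlier results of these data known. All 9 members are named, and from each list the genes that passed or, failing that, at most 4 with the smallest unadjusted p. Others were named after their values were seen, and a gene of the lists is not reported here. Markers covered T cells, Th17 cells, CD8 T cells, NK cells, B cells, myeloid and erythroid cells, kidney tubule, and matrix with smooth muscle. With 2 libraries, likeness of pattern between genes was not measured.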

Additional observations from a re-analysis of the deposited data

How the results depend on the processing

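The count of passing genes was 0 of 9 with the p-values adjusted over every gene, over genes with a mean of 50 or more, without near-absent genes, after centring on the median (0.0083) and after subtracting the GC trend. At an unadjusted p under 0.05 it was 1 of the 9, and 1 of the 34 other paraspeckle proteins. Over all 16385 genes, 282 were lower (1.72%) and 64 higher (0.391%) at that threshold. Under the adjusted settings, 8 to 24 of all genes tested were lower and 1 was higher. The median log2 fold change of the 9 genes was -0.12 after centring, -0.11 after the GC trend and -0.09 without Matr3, the last chosen after seeing the data. Each knockout library alone against the implied wild-type mean, also chosen after seeing the data, gave -0.08 without replicate 1 and -0.19 without replicate 2. Pspc1 changed sign once the GC trend was subtracted, to 0.019, and the cause was not tested beyond that subtraction. The direction of the other 8 genes was kept under both settings. Library totals in place of size factors raised the log2 ratios of replicate 2 to replicate 1 by 0.030 and TMM factors by 0.0046, within each gene's counting interval. No wild-type library could be left out, since they were not used here. No paired analysis was possible because only knockout libraries are among the samples here. Whether the authors' model paired the replicates is not given. With 2 libraries per genotype and standard errors of 0.096 to 0.22, 0 of the 9 genes passed an adjusted p of 0.05. Over genes with a mean of 500 or more, the authors' Wald statistic had an SD of 0.76. Over all 16385 genes, uniform p-values would put 819 under an unadjusted 0.05, against 282 lower and 64 higher. The deposited p-values thus ran high over the whole table, and the reason was not tested. After the GC trend was subtracted, the unadjusted Wald p of Sfpq was 0.0428, against 0.0666 as deposited, and that of Matr3 0.0395, against 0.00921.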

Other observations

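Scaffold proteins of other nuclear bodies lay on both sides of 0. Of 8 such genes, 0 passed an adjusted p of 0.05 by the authors' DESeq2 and 0 were under 0.05 unadjusted. Over all 16385 genes, 1.72% were lower and 0.391% higher at that unadjusted threshold. Of the 8 fold changes, 4 lay below 0 and 4 above, with a median of -0.0025 in the authors' deposited table. Pml and Sp100, which encode proteins of PML bodies, stood at 0.19 (SE 0.12) and 0.19 (SE 0.15) in the authors' deposited table. Sp100 had normalized counts of 5103 and 4132 in the knockout libraries, against an implied wild-type mean of 4018, so replicate 1 stood apart upward. Srrm2 and Son, core proteins of nuclear speckles, stood at 0.11 (SE 0.079) and -0.09 (SE 0.097) in the authors' deposited table.

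Among cell type markers, the knockout libraries held 669 counts of the 2 CD8 T cell markers and 249 of the 3 NK markers, with Ncr1 and Klrb1c at 0. They held 18 counts of the 4 B cell markers, 272 of the 5 myeloid markers and 14 of the 3 erythroid markers, with Alas2 at 0. Single genes carried most of the larger sums. Cd8b1 had 283 and 376 counts, while Cd8a had 6 and 4. Cd68 had 142 and 111 counts, and each other myeloid marker had at most 4 per library. The summed normalized counts of CD8 T cell markers were 280 and 288 in the knockout libraries, against 329 in the implied wild-type mean. Those of erythroid markers were 3.87 and 7.59 in the knockout libraries, against 82.9 in the implied wild-type mean.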
